A study of Sus scrofa with 12 samples.

Results

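The 7 microRNAs described here are the porcine entries of miR-142 (both strands), miR-223, miR-146a, miR-146b, miR-150 and miR-155, which in mouse and human are known mainly from blood and immune cells. They were taken by name, whatever their values, and make up 7 of the 774 miRNA entries measured in pig liver and 7 of the 303 entries with a porcine name. Small RNA was sequenced from 12 livers of 2 pig breeds, Hezuo and Bama, taken at day 15. The 4 groups of 3 livers each were Hezuo pigs kept in the cold (-15 ± 2 °C), Hezuo pigs kept at normal temperature (23 ± 2 °C), Bama pigs kept in the cold and Bama pigs kept at normal temperature. The purpose stated for the series is to find RNAs that bear on cold resistance in the Hezuo breed. The labels give neither age nor sex and do not say which livers were housed or prepared together. Replicates carry pig numbers, but the p-values below measure only the spread between these 12 libraries.

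A miRNA is cut from a hairpin precursor, which can give a mature strand from each of its arms (5p and 3p), and it finds its targets mainly through its seed, bases 2 to 8. In mouse and human, miR-142 is made in nearly all blood-forming lineages, miR-223 is a miRNA of granulocytes, monocytes and platelets, and miR-150 is abundant in mature lymphocytes, where it targets MYB. miR-146a is induced by NF-kB signalling, and miR-146a and miR-146b share the targets TRAF6 and IRAK1. miR-155 is induced when macrophages and lymphocytes are activated and targets SOCS1 and INPP5D. In liver such miRNAs can come from Kupffer cells, other resident leukocytes and blood left in the organ. In bulk tissue, fewer cells of a type and less RNA per cell cannot be told apart.

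The mature sequences are shown to separate the members by seed, which is in capitals, as the deposited table lists them, 5′ to 3′ and with T for U. The prefix ssc marks the porcine entries and is left out further on.
ssc-miR-142-3p: tGTAGTGTttcctactttatgg
ssc-miR-142-5p: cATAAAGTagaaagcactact
ssc-miR-146a-5p: tGAGAACTgaattccatgggtt
ssc-miR-146b: tGAGAACTgaattccataggc
ssc-miR-155-5p: tTAATGCTaattgtgatagggg
ssc-miR-150: tCTCCCAAcccttgtaccagtg
ssc-miR-223: tGTCAGTTtgtcaaatacccc
Only miR-146a-5p and miR-146b share a seed among the 7. Over the 21 bases they have in common the pair differ by G18A and T21C, with positions counted from 1 at the 5′ end and the base of miR-146a-5p first. Those differences lie outside the seed, and counts of such near copies are uncertain where an end is trimmed or misread. Both strands of miR-142 are listed, and their seeds differ.

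The table also lists 7 further forms of these miRNAs without a porcine name. Of these, 4 are shown for where they start and end.
miR-146-x: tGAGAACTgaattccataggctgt
miR-142-y: gTAGTGTTtcctactttatggaa
miR-142-x: cACATAAAgtagaaagcact
miR-223-x: cGTGTATTtgacaagctgagttg
miR-146-x is miR-146b with 3 more bases at its 3′ end, so it has the same seed. miR-142-y starts 1 base later than miR-142-3p, and miR-142-x starts 2 bases earlier than miR-142-5p, so each has another seed than the listed porcine strand. miR-223-x comes from the other strand of the miR-223 hairpin. Another entry, miR-3964-z, has the same seed and the same first 16 bases as miR-142-5p. It is not among these forms. Its counts are left out of the level, strand ratio and shares of miR-142-5p below, except where entries are summed over their first 16 nt.

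In the RefSeq gene table of assembly Sscrofa11.1, MIR142 lay between TSPOAP1 and SUPT4H1, MIR146A between ATP10B and PTTG1, MIR146B next to CUEDC2, and MIR155 between NCAM2 and MRPL39. The genome build behind the deposited values is not stated, so positions are not printed.

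The libraries held 7184168 to 10384074 counts over all listed entries. The hepatocyte miRNA miR-122-5p took 42.8 to 57.1% of them. Levels are given as CPM, the share of a library's counts scaled between libraries by the trimmed mean of M-values (TMM) and expressed in parts of 1e6. The 7 members together summed to group means of 668.1 ± 94.5 CPM in Hezuo cold, 673.4 ± 141.6 CPM in Hezuo normal, 812.5 ± 210.2 CPM in Bama cold and 868.7 ± 215.1 CPM in Bama normal livers (SD, n = 3 each). All 7 passed the filter on low counts, which left 460 entries for testing.

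Both strands of miR-142 stood well above the other members in every liver. Averaged over the 12 livers, miR-142-3p reached 347 ± 78.1 CPM and ranked 53 of 460, and miR-142-5p reached 251 ± 64.2 CPM and ranked 68 (SD, n = 12). The pair that follows was miR-146a-5p at 58.4 ± 19.5 CPM and miR-146b at 53.4 ± 28.9 CPM (SD, n = 12). Next came miR-155-5p at 23.4 ± 8.14 CPM and miR-150 at 20.7 ± 5.71 CPM, and last miR-223 at 2.73 ± 1.58 CPM, rank 344 (SD, n = 12). Neighbours in this order did not all differ beyond their spread. miR-146a-5p was above miR-146b in 9 of 12 livers and miR-155-5p above miR-150 in 8 of 12. The steps down to miR-146a-5p (4.29-fold) and down to miR-223 (7.58-fold) held in 12 of 12 livers. miR-142-3p was above miR-142-5p in 11 of 12 livers, by 1.38-fold between the means. Adapter ligation favours some RNA ends over others, so levels of different miRNAs in 1 library are only roughly comparable.

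**Figure D1:**
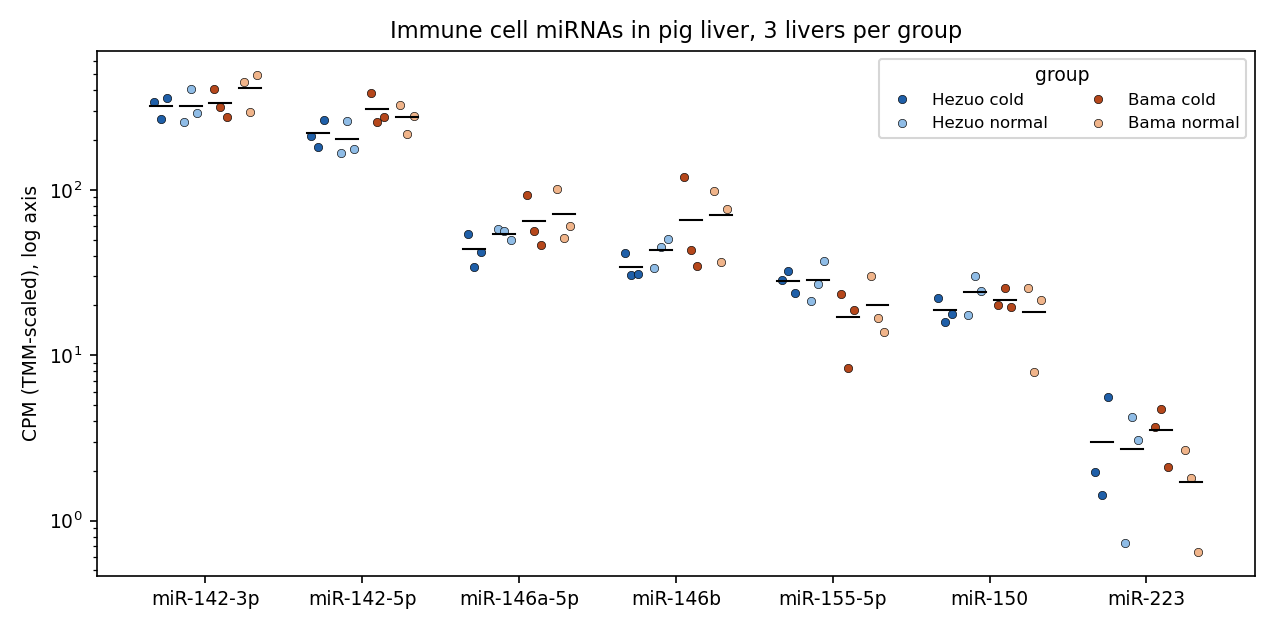
Level of each of the 7 miRNAs in every liver (CPM, log axis), with 1 point per liver in the 4 groups and a line at each group mean. Both miR-142 strands lie at 168 CPM or more in all 12 livers, miR-223 lies at 5.61 CPM or less, and of the groups compared only Hezuo cold and Bama cold are apart, for miR-155-5p.

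miR-142-3p had 338, 266 and 357 CPM in Hezuo cold livers, against 258, 408 and 291 CPM in Hezuo normal livers. It had 409, 317 and 275 CPM in Bama cold livers, against 448, 294 and 497 CPM in Bama normal livers. The highest liver was a Bama normal one and the lowest a Hezuo normal one, and all 4 groups overlapped. miR-142-5p had 213, 181 and 266 CPM in Hezuo cold livers, against 168, 260.0 and 177 CPM in Hezuo normal livers. Its values were 386, 258 and 275 CPM in Bama cold livers, against 326, 217 and 279 CPM in Bama normal livers. Most Bama livers lay above most Hezuo livers, while cold and normal livers of a breed were mixed.

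For miR-146a-5p, Hezuo cold livers had 54.4, 34.1 and 42.2 CPM, against 57.7, 56.1 and 49.4 CPM in Hezuo normal livers. Bama cold livers had 92.4, 56.1 and 46.3 CPM, against 101.6, 50.9 and 60.1 CPM in Bama normal livers. The highest values at each temperature came from the Bama livers numbered 1, and the groups overlapped. Its seed partner miR-146b had 41.6, 30.5 and 30.8 CPM in Hezuo cold livers, against 33.7, 45.4 and 50.3 CPM in Hezuo normal livers. It had 118.9, 43.2 and 34.6 CPM in Bama cold livers, against 98.0, 36.5 and 76.7 CPM in Bama normal livers. The same Bama livers led again, and both Bama groups were widely spread.

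miR-155-5p, the miRNA of activated leukocytes, had 28.5, 32.3 and 23.8 CPM in Hezuo cold livers, against 21.4, 26.9 and 36.9 CPM in Hezuo normal livers. Bama cold livers had 23.5, 8.41 and 18.8 CPM, against 29.9, 16.8 and 13.7 CPM in Bama normal livers. All 3 Hezuo cold livers were above all 3 Bama cold livers, by a narrow margin between the nearest values, and no other pair of groups was apart. miR-150 had 22.3, 15.9 and 17.8 CPM in Hezuo cold livers, against 17.5, 30.1 and 24.4 CPM in Hezuo normal livers. Its values were 20.2, 25.4 and 19.5 CPM in Bama cold livers, against 25.5, 7.86 and 21.5 CPM in Bama normal livers. 1 Bama normal liver was far below the others, and all groups overlapped.

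miR-223 rested on few counts, with 17, 11 and 45 counts in Hezuo cold livers, against 6, 44 and 23 in Hezuo normal livers. Bama cold livers gave 38, 35 and 16 counts, against 20, 14 and 5 in Bama normal livers. High and low livers occurred in both temperatures of Hezuo, and the Bama groups overlapped.

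Livers of the same group differed more in these miRNAs than in most entries with at least 10 CPM. The within-group SD on the log2 CPM scale was 0.32 for miR-142-3p, 0.31 for miR-142-5p, 0.41 for miR-146a-5p, 0.63 for miR-146b, 0.53 for miR-155-5p and 0.52 for miR-150. The median over the 236 entries with at least 10 CPM was 0.21, and the 6 members above that level lay between the 76.3 and 94.9 percentile of those entries. miR-223 had an SD of 0.91. Over all 460 tested entries the median was 0.34, with miR-142-3p at the 48.3 percentile and miR-142-5p at the 46.5 percentile. The other members lay between the 61.5 percentile (miR-146a-5p) and the 96.3 percentile (miR-223) of all tested entries.

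The first question was whether 15 days of cold moved the members in each breed. None of the 7 passed edgeR's quasi-likelihood test with Benjamini-Hochberg adjustment over all 460 entries, in Hezuo, in Bama or averaged over both breeds. None had an unadjusted p under 0.05 in these comparisons. Of all 460 entries, edgeR called 0% in Hezuo cold against Hezuo normal, 1.09% in Bama cold against Bama normal and 2.17% averaged over both breeds. DESeq2 called no member either, beside 0% of the entries it tested in Hezuo, 4.9% in Bama and 6.53% averaged over both breeds. At an unadjusted edgeR p under 0.05 the share of all entries was 9.35% in Hezuo, 14.6% in Bama and 17.8% averaged over both. No member had groups that did not overlap, beside 15.4% of all entries in Hezuo and 16.7% in Bama. Within both breeds and in the same direction, 2.83% of all entries were apart. A log2 difference above 0 was found for 3 members in Hezuo (44.8% of all entries), for 3 in Bama (49.6%) and for 2 averaged over both breeds (45.2%).

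Averaged over both breeds, cold over normal, the log2 differences of the members ran from -0.22 to 0.59, with a median of -0.13 beside -0.03 over all entries. miR-142-3p had -0.15 (SE 0.16, 95% interval -0.49 to 0.19, edgeR adjusted p = 0.642) and miR-142-5p had 0.14 (SE 0.15, interval -0.19 to 0.47, adjusted p = 0.652). The miR-146 pair had -0.22 for miR-146a-5p (interval -0.66 to 0.22, edgeR adjusted p = 0.603) and -0.21 for miR-146b (interval -0.94 to 0.51, adjusted p = 0.752). miR-155-5p had -0.13 (interval -0.67 to 0.42, edgeR adjusted p = 0.824) and miR-150 had -0.06 (interval -0.58 to 0.46, adjusted p = 0.909). All of these intervals leave out a doubling with cold, whereas that of miR-223, at 0.59 (-0.40 to 1.58, edgeR adjusted p = 0.543), does not.

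Within Hezuo the log2 differences ran from -0.36 for miR-150 to 0.14 for miR-223, and edgeR adjusted p-values from 0.780 to 0.997. Within Bama they ran from -0.31 for miR-142-3p to 1.04 for miR-223 (SE 0.66, interval -0.39 to 2.47), with edgeR adjusted p-values from 0.522 to 0.959. The difference of the cold response, Hezuo minus Bama, was tested in the same fit and no member passed or had an unadjusted p under 0.05. By edgeR 0% of all 460 entries were called, and 5.43% had an unadjusted p under 0.05. DESeq2 called no member and 0% of the entries it tested. For miR-223 that difference was -0.90 (SE 0.92) and for miR-150 it was -0.61 (SE 0.48), with an edgeR adjusted p of 0.961 for each.

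**Figure D2:**
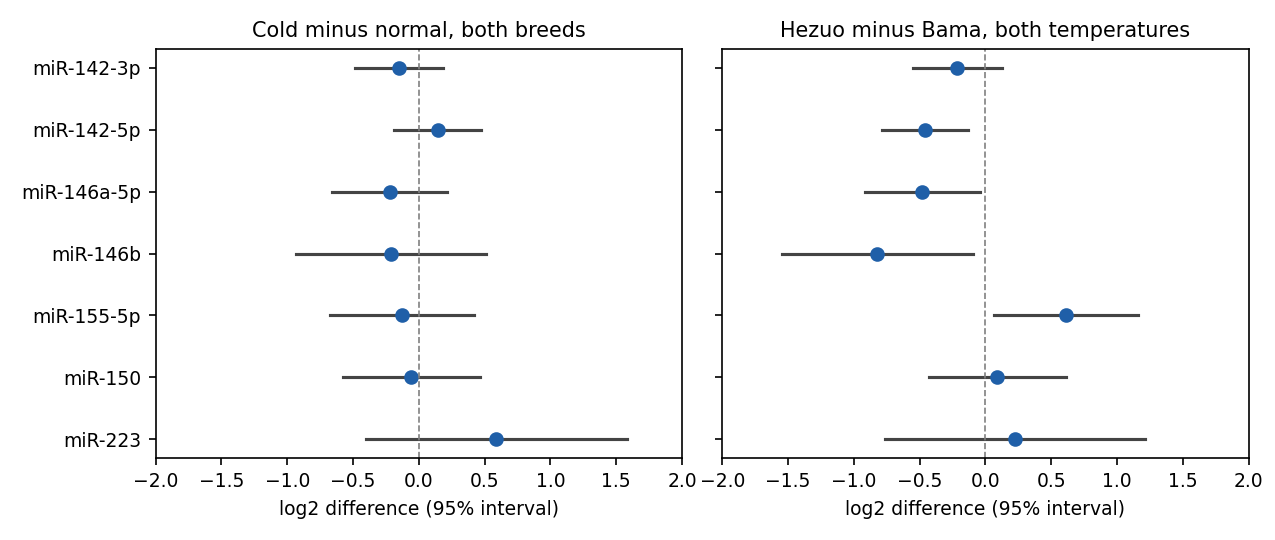
Log2 difference of each miRNA with its 95% interval, for the comparisons of cold over normal and of Hezuo over Bama. Averaged over both temperatures, the intervals of miR-142-5p, miR-146a-5p and miR-146b lie below 0 and that of miR-155-5p above 0, and no adjusted p is under 0.05.

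The second question was how the breeds differ. Averaged over both temperatures, Hezuo over Bama, 4 of the 7 members had an unadjusted p under 0.05 and none passed the adjustment. The background was 11.1% of the 460 entries called and 25.9% with an unadjusted p under 0.05, so breed differences were common in these livers. No member had Hezuo and Bama livers apart in the same direction at both temperatures, beside 7.61% of all entries. For 3 members the log2 difference was above 0, beside 50% of all entries. miR-142-5p came nearest, at 219.9 ± 42.5 CPM in Hezuo cold livers and 306 ± 69.5 CPM in Bama cold livers, and at 202 ± 50.7 CPM in Hezuo normal livers and 274 ± 54.7 CPM in Bama normal livers (SD, n = 3 each). Its log2 difference was -0.46 (SE 0.15, interval -0.79 to -0.13, edgeR adjusted p = 0.0671). That p was 0.0378 without Hezuo cold 3, 0.0259 without Hezuo normal 2, 0.0391 without Bama cold 2 and 0.0376 without Bama normal 2, all from edgeR with Benjamini-Hochberg adjustment, so the call depends on which livers are included. miR-142-3p, from the same hairpin, had -0.22 (interval -0.55 to 0.12, edgeR adjusted p = 0.438).

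The miR-146 pair had lower means in Hezuo livers, with log2 differences of -0.48 for miR-146a-5p (SE 0.20, edgeR adjusted p = 0.163) and -0.82 for miR-146b (SE 0.33, adjusted p = 0.152). DESeq2 called miR-146b, at -0.83 with an adjusted p of 0.0497, and no other member, beside 10.6% of the entries it tested. miR-155-5p ran the other way, at 0.61 (SE 0.25, interval 0.06 to 1.16, edgeR adjusted p = 0.157). miR-150 had 0.09 (SE 0.24, edgeR adjusted p = 0.874) and miR-223 had 0.22 (SE 0.46, adjusted p = 0.815).

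At each temperature alone, Hezuo over Bama, no member was called by edgeR's test or by DESeq2, against 3.7% of all entries at normal temperature and 4.35% in the cold by edgeR, and against 7.36% at normal temperature and 4.33% in the cold by DESeq2. In the cold, 1 member (miR-142-5p, -0.48, SE 0.22, edgeR adjusted p = 0.312) had an unadjusted p under 0.05, beside 15% of all entries. miR-155-5p was the 1 member whose Hezuo cold and Bama cold livers did not overlap, at 0.73 (SE 0.36, edgeR adjusted p = 0.340), and 20.2% of all entries were apart in that way. At normal temperature no member had an unadjusted p under 0.05 (20.2% of all entries) or groups that did not overlap (22.2%). A log2 difference above 0 was found for 3 members at normal temperature (54.3% of all entries) and for 1 in the cold (47.4%).

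Summed levels of markers of other cell types are given beside these comparisons. The erythroid list (miR-451, miR-144 and miR-486, with 5 of its 9 entries tested) summed to 669.8 to 2446 CPM in Hezuo cold livers and 537 to 1343 CPM in Bama cold livers, and to 631 to 1889 CPM in Hezuo normal livers and 439.5 to 994 CPM in Bama normal livers. Averaged over both temperatures, all 5 tested entries had a positive log2 difference, Hezuo over Bama, with a median of 0.68 and none called by edgeR. In the cold alone 4 of the 5 were positive, and at normal temperature all 5 were. The sums of the endothelial list (miR-126) and of the epithelial list (miR-200 family) overlapped between all groups, and no entry of either was called. Single entries were apart in some comparisons. miR-126-y had a log2 difference of 0.78 in Bama cold over Bama normal (edgeR adjusted p = 0.0552), where all 4 endothelial entries were positive. miR-141 had -1.21 in Hezuo normal over Bama normal (edgeR adjusted p = 0.0550), where 1 of 4 tested epithelial entries was positive. The stellate and smooth muscle list (miR-143, miR-145, miR-199 and miR-214) summed to 18301 to 23063 CPM in Hezuo cold livers and 20840 to 28629 CPM in Bama cold livers, and to 18370 to 21267 CPM in Hezuo normal livers and 22152 to 30131 CPM in Bama normal livers, with no entry called. The cold groups of this list overlapped and the normal groups did not, with all Hezuo normal livers below all Bama normal livers. Its most abundant entry, miR-143-3p, had a log2 difference of -0.34, Hezuo over Bama averaged over both temperatures (edgeR unadjusted p = 0.0118, adjusted p = 0.0765). The hepatocyte list (miR-122) summed to 403829 to 519989 CPM in Hezuo cold livers, against 536238 to 714005 CPM in Hezuo normal livers, which did not overlap. In Bama it summed to 463696 to 526336 CPM in cold livers, against 501609 to 549071 CPM in normal livers. Of its 4 entries miR-122-x was called, in Hezuo over Bama averaged over both temperatures, at 0.33 (edgeR adjusted p = 0.0349). The part of these cell types in the members' values was not tested.

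The strands of miR-142 were then set against each other within each library, a ratio that does not depend on scaling. The 5p count over the 3p count was 0.630, 0.681 and 0.744 in Hezuo cold livers, against 0.652, 0.637 and 0.609 in Hezuo normal livers. It was 0.943, 0.815 and 1.001 in Bama cold livers, against 0.728, 0.738 and 0.562 in Bama normal livers. The 3 Bama cold livers were above all 9 others, and the other 3 groups overlapped.

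Averaged over both breeds, the log2 ratio was 0.28 higher in cold livers than in normal livers, with 0.11 in Hezuo and 0.45 in Bama (two-sided exact permutation test within breed, p = 0.015 over 400 arrangements, 0.03 after adjustment over both strand tests). Averaged over both temperatures it was lower in Hezuo livers than in Bama livers, at -0.25, with -0.42 under cold and -0.08 without it (two-sided exact permutation test within temperature, p = 0.04, adjusted 0.04). The difference between the breeds in the cold response of the ratio was not tested. The background was 25 miRNAs with both porcine strands at a mean of at least 10 CPM and counted in every library. Of these pairs, 12% had an exact permutation p under 0.05 for cold and 16% for breed. A larger difference than that of miR-142 was found in 5 pairs for cold and in 4 for breed. Adjusted over those 25 pairs, the exact permutation p was 0.275 for cold and 0.25 for breed, so neither passed across all pairs. Without any 1 library the cold difference stayed between 0.22 and 0.32, with exact permutation p-values up to 0.04, whereas the breed difference lost its p under 0.05 in 9 of 12 such fits.

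**Figure D3:**
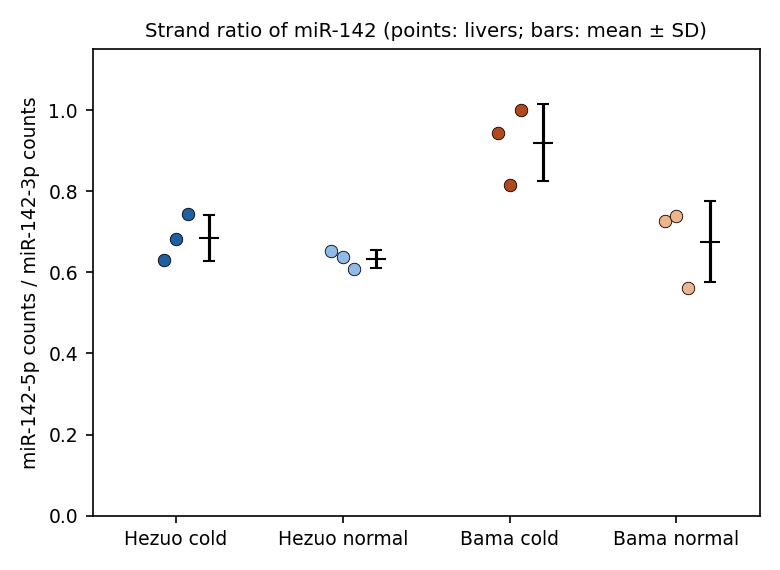
Ratio of miR-142-5p to miR-142-3p counts in every liver, with 1 point per liver and a bar of the group mean ± SD beside the points. The means are 0.685 in Hezuo cold, 0.633 in Hezuo normal, 0.919 in Bama cold and 0.676 in Bama normal livers, and the Bama cold livers lie above all others.

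The longer and shifted forms were compared as shares, in tests chosen after their values were seen. miR-146-x, the longer form, held 35.5 ± 7.13% of the counts of miR-146b plus itself in Hezuo cold livers and 27.4 ± 3.04% in Bama cold livers (SD, n = 3 each). At normal temperature it held 36.3 ± 8.30% in Hezuo livers and 28.6 ± 2.71% in Bama livers (SD, n = 3 each). The breed difference was 7.88 percentage points (exact permutation p = 0.05, 0.3 after Benjamini-Hochberg adjustment over 12 such tests). The background was 36 such forms over all miRNAs, where form and porcine entry each had a mean of at least 10 CPM. Of these, 55.6% had an exact permutation p under 0.05 between breeds, so a difference of this kind was common.

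miR-142-y, the 3p form that starts 1 base later, held 3.81 ± 0.0620% of its strand in Hezuo cold livers and 3.68 ± 0.159% in Hezuo normal livers, and 4.32 ± 0.530% in Bama cold livers and 2.91 ± 0.218% in Bama normal livers (SD, n = 3 each). The cold difference averaged 0.77 percentage points, with 0.13 in Hezuo and 1.41 in Bama (exact permutation p = 0.015, adjusted 0.18), and 13.9% of the 36 forms had a p under 0.05 for cold. miR-142-x, the 5p form that starts 2 bases earlier, held 0.416 to 1.13% of its strand, with an exact permutation p of 0.705 for cold and 0.82 for breed (adjusted 0.982 for each). miR-223-x, from the other strand, outnumbered the porcine entry miR-223, with 518 counts against 274 over the 12 libraries. It held 44.2 to 76.0% of all miR-223 counts, and its share differed by 0.11 percentage points between cold and normal livers (exact permutation p = 0.99). As a level, miR-223-x had a log2 difference of 0.60 with cold averaged over both breeds (SE 0.30, interval -0.04 to 1.24, edgeR adjusted p = 0.300), close in size to that of miR-223.

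**Figure D4:**
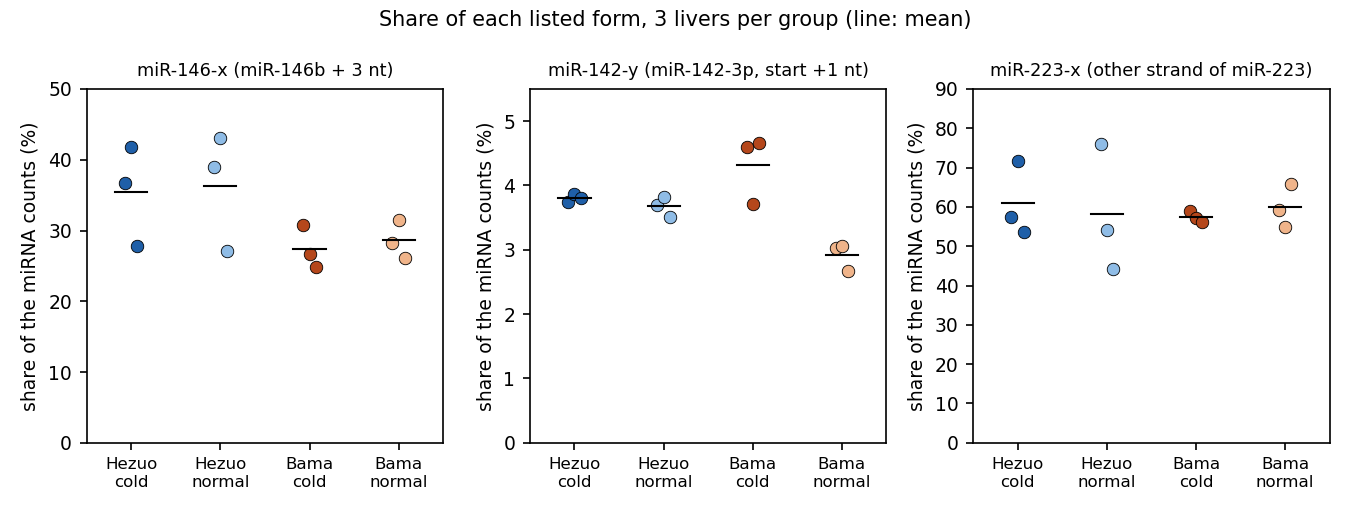
Share of each listed form among the counts of its miRNA, in percent, with 1 point per liver and a line at each group mean. miR-146-x has higher means in Hezuo livers, miR-142-y has its highest mean in Bama cold livers, and miR-223-x holds 44.2% or more of the miR-223 counts in all 12 livers.

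Members were also compared with each other across the 12 livers, as log2 CPM in 21 pairs. miR-146a-5p and miR-146b had the highest correlation, with Pearson's r = 0.88 (permutation p = 0.00014, adjusted 0.00294) and Spearman's rho = 0.78 (permutation adjusted p = 0.0428). Without the 2 livers farthest from the median, r was 0.64. The strands of miR-142 had r = 0.74 (permutation adjusted p = 0.0461) and rho = 0.78 (adjusted 0.0428), and r was 0.74 without the 2 farthest livers. miR-146b was correlated with miR-142-3p at r = 0.76 (permutation adjusted p = 0.0443, rho = 0.73) and with miR-142-5p at r = 0.71 (adjusted 0.0461, rho = 0.57). By Spearman's rho, permutation adjusted p-values for the last pairs were 0.0632 and 0.204.

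Part of such a correlation can come from differences between the 4 groups, so it was repeated on deviations from the group means. All 21 values of r were then above 0, between 0.12 and 0.89, with 0.89 for the strands of miR-142 and 0.83 for the miR-146 pair. None of the 21 passed adjustment (smallest exact permutation adjusted p = 0.162), although 5 had an unadjusted p under 0.05. miR-155-5p had pooled values of r between -0.24 and 0.12 with the other 6 members. The pairs share library depth and scaling, and the miR-146 pair also shares most of its sequence.

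**Figure D5:**
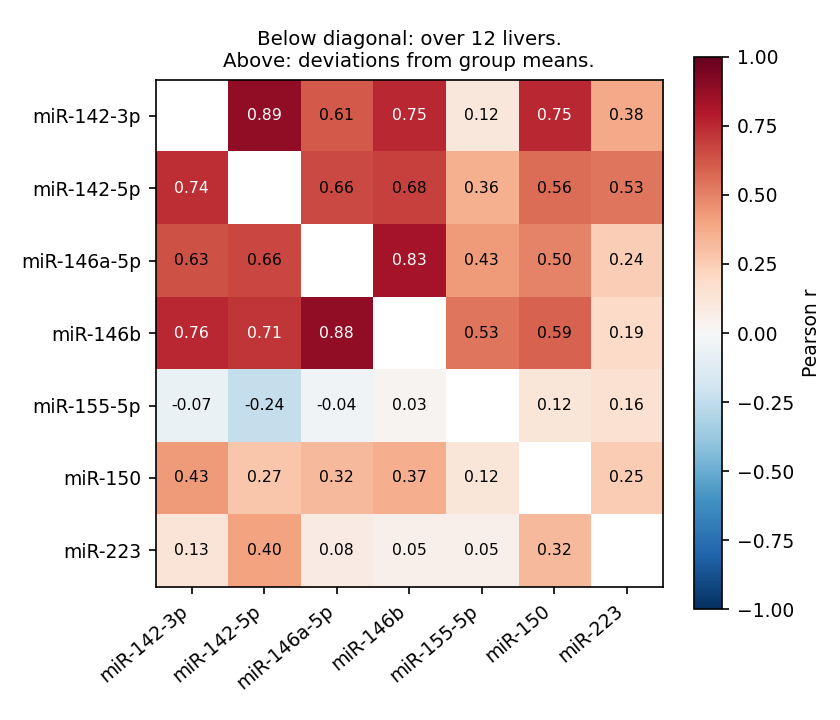
Pearson's r of log2 CPM for every pair of the 7 miRNAs, over all 12 livers below the diagonal and for deviations from the group means above it. The miR-146 pair reaches 0.88 and the miR-142 strands 0.74 below the diagonal, and all 21 values above it are positive.

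Outside the family, the 3 entries whose log2 CPM most resembled each member over the 12 livers were named by Pearson's r among 228 candidates with at least 10 CPM, as a description. miR-142-3p was most like miR-128 (0.84), miR-363 (0.70) and miR-222 (0.69), and miR-142-5p most like miR-532-5p (0.79), miR-363 (0.79) and miR-27a (0.78). miR-363 was also among the 3 nearest to miR-146a-5p (0.74, with miR-450b-5p at 0.74) and to miR-146b (0.86, with miR-450c-5p at 0.73), and a predicted miRNA was the remaining neighbour of both. miR-155-5p was nearest to miR-193-x (0.87), miR-574-3p (0.84) and miR-215 (0.74). The likenesses of miR-150 (0.48 to 0.56) and miR-223 (0.55 to 0.59) were lower, and the nearest were miR-143-y and miR-186-5p.

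Finally, 2 lists of other leukocyte miRNAs were read for counts. Of the lymphocyte list (miR-342 and the miR-181 family, with 4 of 5 entries tested), 1 entry was called in 1 of the 7 comparisons, Hezuo over Bama averaged over both temperatures, where 11.1% of all entries were called. That was miR-181a, known from lymphocyte development in mouse, which had a log2 difference of 0.31 (SE 0.08, edgeR adjusted p = 0.0270). Its level was 313 ± 26.7 CPM in Hezuo cold livers and 270.1 ± 19.5 CPM in Bama cold livers, and 408 ± 26.7 CPM in Hezuo normal livers and 309 ± 32.1 CPM in Bama normal livers (SD, n = 3 each). It was the 1 tested entry of the 4 with a positive log2 difference, and the median of the list was -0.07. miR-342 had -0.48 in the same comparison (edgeR adjusted p = 0.178), miR-181b had -0.01 (adjusted p = 0.980) and miR-181d-5p had -0.12 (adjusted p = 0.723). The summed list held 334 to 397 CPM in Hezuo cold livers and 289 to 341 CPM in Bama cold livers, and 427 to 484 CPM in Hezuo normal livers and 329 to 387 CPM in Bama normal livers. Hezuo normal livers thus lay above those of Hezuo cold and of Bama normal with no overlap, and miR-181a made up most of the sum. Of the list induced by Toll-like receptor signalling (miR-21, miR-132, miR-212, miR-147 and miR-9, with 7 of 13 entries tested), none was called in any comparison. Its most abundant entry, miR-21-5p, had 19468 ± 5524 CPM in Hezuo cold livers and 12703 ± 2319 CPM in Hezuo normal livers, and 18691 ± 5714 CPM in Bama cold livers and 14485 ± 3207 CPM in Bama normal livers (SD, n = 3 each). Averaged over both breeds its log2 difference with cold was 0.49 (edgeR adjusted p = 0.229).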

How the data were processed

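Liver RNA of 18 to 30 nt was gel-selected and ligated to adapters, per the labels' protocols. The authors deposited 1 table with raw tag counts and TPM per miRNA entry and library (774 entries, 12 libraries), per the file headers. No label or header names an aligner, a miRNA database or a genome build. The deposited TPM values are counts over a library total, and served only to give the listed share of each total (84.3 to 88.2%).

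Counts were tested with edgeR 4.0.16 (R 4.3.3, limma 3.58.1): TMM scaling, filterByExpr (460 entries kept), 1 coefficient per group and the robust quasi-likelihood test, with Benjamini-Hochberg adjustment over the 460 entries and calls at 0.05. TMM factors ran from 0.816 to 1.10, and the biological coefficient of variation was 25.0%. Log2 CPM used a prior count of 2. Exact permutation tests kept breed or temperature as strata; correlations used 100000 permutations. Fits were tested on simulated data.

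Members are all entries with the listed names; likeness names the 3 highest r with at least 10 CPM. Forms of the members were taken by name, as entries without the porcine prefix. All but miR-150-x and miR-223-x shared at least 16 nt with a member. Members and lists were chosen with earlier results of these data known. Alternatives were size factors and tests of DESeq2 1.42.0, listed sums as library sizes, no filter, entries summed over their first 16 nt, a replicate block and each library left out.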

Additional observations from a re-analysis of the deposited data

Results flagged for a closer look

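The form miR-150-x had 51 counts in Bama normal 2 and 0 in the other 11 libraries, where a count of 0 allows up to 3 counts. It was looked at because 1 liver held all of its counts, and no other of the 774 entries had counts in a single library. Its listed sequence differs from miR-150 by A7C and T21G, with positions counted from the 5′ end and the base of miR-150 first, and the first of these lies in the seed. The same library had the lowest miR-150, with 61 counts (7.86 CPM), and both together came to 112 counts there, against at least 123 counts of miR-150 in each other library. It was also the library with the lowest listed share of its total, at 84.3%. The source of these counts was not tested.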

How the results depend on the processing

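Of 882 recomputed member values (49 results under 18 settings), 814 kept direction and call, 63 changed sign and 5 were newly called. Sign changed for miR-155-5p in Hezuo cold (main -0.01) with DESeq2 size factors (0.025), listed sums (0.18), no filter (0.026) and DESeq2 (0.025). It changed for miR-150 averaged over breeds (-0.06) with listed sums (0.018), for the miR-142-5p difference of response (-0.04) with listed sums (0.15), no filter (0.0034) and summed entries (0.012), and for miR-142-3p in Hezuo cold over Bama cold (-0.06) with summed entries (0.029). Listed sums moved the median of all entries to 0.13 in Hezuo (main -0.04), 0.15 for the difference of response (-0.05) and -0.09 for Hezuo over Bama at normal temperature (0.05). DESeq2 called 1 member between breeds (miR-146b, -0.83).

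Leaving out 1 library gave, for cold in Hezuo, -0.10 to 0.24 (miR-142-3p), -0.15 to 0.27 (miR-155-5p) and -0.63 to 0.67 (miR-223). For cold in Bama it gave -0.030 to 0.30 (miR-142-5p), -0.45 to 0.21 (miR-146a-5p), -0.84 to 0.22 (miR-146b), -0.54 to 0.15 (miR-155-5p) and -0.13 to 0.54 (miR-150). Averaged over breeds it gave -0.26 to 0.086 (miR-155-5p) and -0.23 to 0.11 (miR-150). The difference of response ran over -0.17 to 0.19 (miR-142-5p), -0.50 to 0.17 (miR-146a-5p), -0.51 to 0.55 (miR-146b) and -0.12 to 0.56 (miR-155-5p). Hezuo cold over Bama cold ran over -0.17 to 0.11 (miR-142-3p) and -1.04 to 0.057 (miR-223), and breed averaged over temperatures over -0.088 to 0.21 (miR-150) and -0.19 to 0.46 (miR-223). Members called between breeds numbered 0 to 1, and the breed difference of the miR-142 ratio ran from -0.32 to -0.22. Correlated pairs (main 4) numbered 1 to 5, against 0 for deviations from group means and 0 for summed entries. miR-146a-5p, miR-146b and miR-146-x have the same first 16 nt and are merged by summing, so the miR-146 pair could not be counted there. The causes were not tested.

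Calls over all entries moved by more than 1.5 times as follows. Bama cold (main 5) had 1 with listed sums, 21 with DESeq2, 3 with summed entries and 0 to 8 without 1 library. Cold averaged (10) had 6 without the filter, 26 with DESeq2, 5 with summed entries and 5 to 12 without 1 library. Hezuo over Bama at normal temperature (17) had 37 with DESeq2 and 4 to 24 without 1 library, and in the cold (20) 13 with summed entries and 7 to 21 without 1 library. The number of entries tested also differed, with 460 in the main fit, 335 when summed and 774 without the filter. DESeq2 tested 429 for Bama cold, 398 for cold averaged and 503 for breed at normal temperature. With listed sums, higher and lower calls were 7 and 15 at normal temperature (main 12 and 5), 13 and 5 in the cold (11 and 9), 8 and 2 for cold averaged (6 and 4), 1 and 0 in Bama cold (3 and 2). Pig numbers recur in every group, but the labels do not say that they pair animals, so the main fit did not take them as pairs. Deviations of same-numbered livers correlated at 0.00785 to 0.168, which with 3 livers per group cannot decide whether they are paired. The replicate block treated same-numbered livers of a breed as pairs in the cold comparisons, and blocked by number in the breed comparisons. With this block no member was called, miR-155-5p in Hezuo cold had 0.019 and miR-150 averaged over breeds 0.0082. Calls over all entries were then 4 in Hezuo cold (main 0), 3 in Bama cold and 11 for breed at normal temperature. DESeq2 called 71 entries for breed averaged (main 51). miR-223 had the fewest counts, 5 to 45.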

Other observations

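The livers of the 2 Bama pigs numbered 1, 1 at each temperature, had the highest miR-146b of all 12 livers, with 118.9 CPM in the cold and 98.0 CPM at normal temperature, and also the highest miR-146a-5p, with 92.4 CPM in the cold and 101.6 CPM at normal temperature. The labels do not say that these livers share an animal, a litter or a day.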
